A study of Drosophila melanogaster with 12 samples.

Results

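The heat shock protein genes described here are 9 Drosophila melanogaster genes chosen by their FlyBase symbols: Hsp70Aa, Hsp70Ba, Hsp70Bb, Hsp68, Hsp83, Hsp22, Hsp23, Hsp26 and Hsp27. They are 9 of the 17737 gene identifiers counted in every library, and all 9 symbols had an identifier. The study knocked down Atx2, the gene of the RNA-binding protein Ataxin-2, in 2 systems and measured poly(A) RNA in 12 libraries, 3 for each of 4 groups. S2 cells, a cultured Drosophila line with blood cell properties, either received no treatment or were given double-stranded RNA against Atx2, called dsRNA here. Larval brains, dissected whole at the 3rd instar, came either from larvae whose labels name no treatment or from larvae in which elav gal4, a driver active in neurons, expressed an shRNA (short hairpin RNA) to Atx2. The genotype of the control brains and the number of brains in a library are not given in the labels, so a transgene or driver present on only 1 side of the brain comparison cannot be told apart from the knockdown. Nothing says that the 3 libraries of a group came from separate cultures or animals, and the p-values measure only the spread between these libraries, which may be technical.

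Heat shock proteins are chaperones that hold, refold or pass on unfolded proteins. In Drosophila the Hsp70 and Hsp68 genes are nearly silent without stress and are strongly transcribed when the heat shock factor Hsf binds their promoters. Hsp83, the fly Hsp90, is abundant without stress and matures kinases and hormone receptors. The small heat shock proteins Hsp22, Hsp23, Hsp26 and Hsp27 form oligomers that keep unfolded proteins soluble, and their genes respond both to Hsf and, in larval tissues, to the moulting hormone ecdysone.

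Total counts ran from 14944637 to 29020252 in the 6 S2 libraries and from 26442727 to 31579528 in the 6 brain libraries. Levels are given as CPM, the count of a gene relative to the size of its library, on 1 scale for all 12 libraries, with library sizes scaled by the trimmed mean of M-values (TMM). Atx2 itself, the target, stood at 239 ± 20.2 CPM in S2 control cells and 129.9 ± 62.7 CPM with dsRNA, and at 183 ± 4.27 CPM in control brains and 93.9 ± 6.25 CPM with shRNA (SD, n = 3 each). A gene is called changed when the adjusted p of edgeR's quasi-likelihood test, with Benjamini-Hochberg adjustment over all genes tested, is below 0.05. In each comparison 7 of the 9 genes had enough counts to be tested, and Hsp70Aa and Hsp22 did not.

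In S2 cells all 7 tested heat shock genes had lower fitted levels after Atx2 dsRNA, and Hsp23, Hsp27 and Hsp83 passed the test. These 3 calls of 7 stand against 55% of all 9058 genes tested being called and 26.6% called lower. With 7 genes that were chosen together, nothing is read from this count. The median log2 fold change of the 7 genes was -2.64, against 0.04 over all genes tested. The fitted differences of the 6 inducible genes were larger than that of Hsp83, but their control libraries also differed so widely that the groups overlapped for all 6. In brain, Hsp23 and Hsp27 fell, with every shRNA library below every control library, while Hsp70Ba, of the brain libraries, was counted almost only in those with shRNA.

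**Figure D1:**
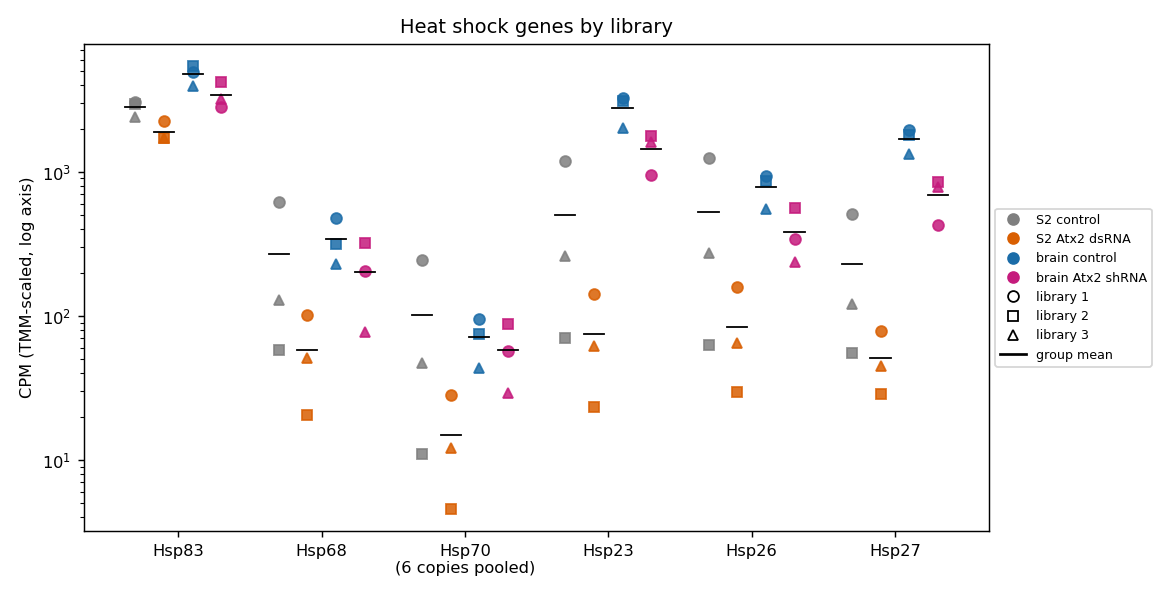
Level of 5 heat shock genes and of the 6 Hsp70 copies summed, in CPM on a log axis. Each point is 1 library, its shape gives the library number, its colour the group, and the bar is the group mean. In S2 control cells, library 1 lies far above libraries 2 and 3 for every gene shown except Hsp83, where the 3 libraries lie between 2386 and 3065 CPM.

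Among the stress-inducible genes, the Hsp70 copies are nearly identical genes on chromosome arm 3R that each encode the main inducible chaperone. The BDGP6.54 annotation places Hsp70Aa at chr3R:11954163-11956544, Hsp70Ba at chr3R:12465453-12467776 and Hsp70Bb at chr3R:12505793-12508139, each as a gene of 1 exon. Reads that match several copies may have been dropped or split by the counting, so the level of a single copy is uncertain, and the 3 other copies (Hsp70Ab, Hsp70Bbb and Hsp70Bc) were counted with them as a pooled Hsp70 level.

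Hsp70Bb, the copy with the most counts, stood at 141, 5.89 and 26.7 CPM in S2 control libraries 1, 2 and 3 and at 16.5, 2.50 and 6.38 CPM with dsRNA. Library 1 was the highest and library 2 the lowest in both groups, and the groups overlapped. Its fitted level was 6.73-fold lower with dsRNA, a log2 fold change of -2.75 ± 1.07 (SE) that missed the threshold (adjusted p = 0.0587, edgeR).

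Hsp70Ba was counted at 16.2, 0.792 and 3.16 CPM in the S2 control libraries and at 1.79, 0.357 and 0.886 CPM with dsRNA. Again library 1 was the highest of each group and the groups overlapped, with a log2 fold change of -2.70 ± 1.02 (adjusted p = 0.0525, edgeR). The 6 copies summed gave 246, 11.1 and 46.9 CPM in control cells and 28.3, 4.55 and 12.1 CPM with dsRNA. This is a log2 fold change of -2.74 ± 1.05 (adjusted p = 0.0557, edgeR). Hsp70Aa had 3, 0 and 1 counts in the control libraries and 2, 0 and 2 counts with dsRNA, which is at or under the limit that a count of 0 allows (3 counts, at most 0.177 CPM in these libraries).

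Hsp68, an inducible relative of Hsp70 at chr3R:24055080-24057310, stood at 621, 58.05 and 128 CPM in S2 control libraries and at 102, 20.6 and 50.9 CPM with dsRNA. The highest dsRNA library lay between the lowest and the middle control library. The log2 fold change was -2.20 ± 0.87 (adjusted p = 0.0613, edgeR).

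Hsp83, the fly Hsp90 at chr3L:3192969-3197059, was the only member whose S2 groups did not overlap. Its levels were 3065, 2979 and 2386 CPM in the control libraries and 2269.8, 1718 and 1721 CPM with dsRNA. All dsRNA libraries lay below all control libraries, as was the case for 30.2% of all genes tested. Hsp83 fell 1.49-fold, a log2 fold change of -0.57 ± 0.14 (adjusted p = 0.00925, edgeR), and it was called with any single S2 library left out. The call depends on the scaling: with library totals alone, which shifts the median over all genes by 0.49 (log2), the value was -0.09 (adjusted p = 0.593).

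Among the small heat shock genes, Hsp23 stood at 1187, 70.4 and 259 CPM in control libraries 1, 2 and 3 and at 141, 23.5 and 61.7 CPM with dsRNA. Library 1 was the highest in each group and the groups overlapped. Hsp23 was called 6.63-fold lower, a log2 fold change of -2.73 ± 0.99 (adjusted p = 0.0461, edgeR).

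Hsp26 showed the same order of libraries, at 1254, 62.6 and 273 CPM in control cells and 159, 29.5 and 64.4 CPM with dsRNA. Its log2 fold change of -2.64 ± 1.01 missed the threshold (adjusted p = 0.0552, edgeR). Hsp27 was counted at 508, 55.7 and 122 CPM in control cells and at 78.3, 28.8 and 45.02 CPM with dsRNA. It was called 4.46-fold lower although the groups overlapped, with a log2 fold change of -2.16 ± 0.74 (adjusted p = 0.0384, edgeR).

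Hsp22 had 0 counts in all 12 libraries. In the BDGP6.54 annotation all 1900 exon bases of Hsp22 (chr3L:9372931-9374964) also belong to CG4456 on the same strand. A counter that leaves out reads shared by 2 genes gives 0 for such a gene at any level of its RNA, so the 0 sets no limit on Hsp22 here, and CG4456 had at most 3 counts in a library.

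For the 6 inducible genes the S2 control libraries stand far apart, with library 1 the highest and library 2 the lowest. The ratio of the highest to the lowest control library (CPM plus 0.5) was 22.1 for Hsp70Bb, the widest of all 9058 genes tested. It was 19.9 for Hsp26, 16.7 for Hsp23, 12.9 for Hsp70Ba, 10.6 for Hsp68 and 9.05 for Hsp27. The median over all genes was 1.22 and the ratio of Hsp83 was 1.28. In the dsRNA libraries the same ratio was 2.67 to 5.89 for the 6 inducible genes, against a median of 1.31 over all genes.

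**Figure D2:**
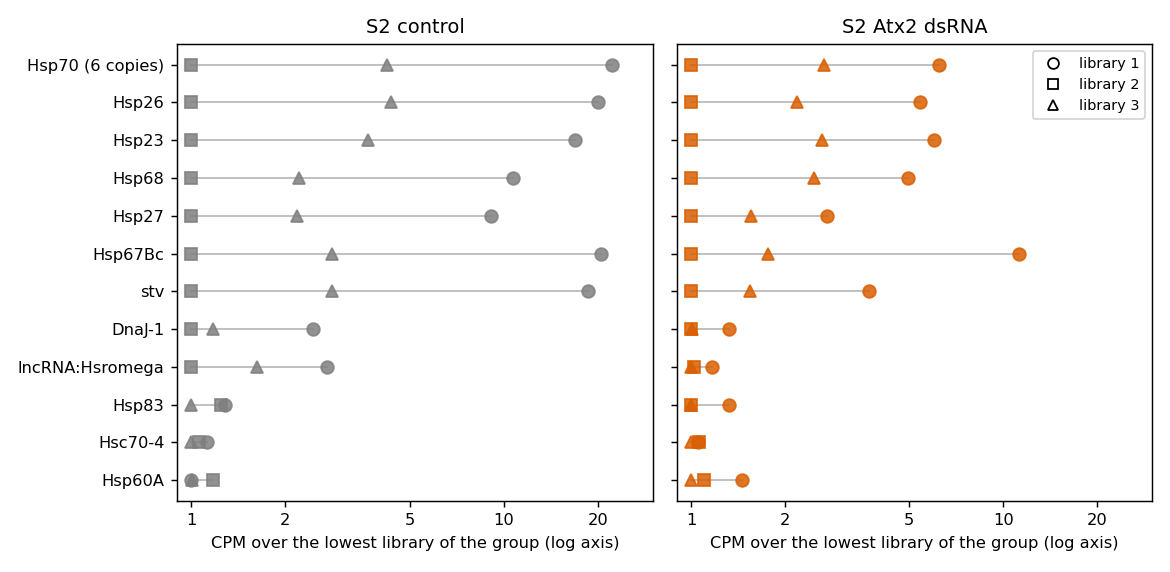
Level of each gene in the 3 libraries of a group, divided by the lowest of the 3 (log axis), for S2 control cells (left) and S2 cells with Atx2 dsRNA (right). The shape gives the library number. Hsp70, Hsp26, Hsp23, Hsp68 and Hsp27, with Hsp67Bc and stv, run highest in library 1 and lowest in library 2 in both groups, while Hsp83, Hsc70-4 and Hsp60A stay close together.

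Libraries ranked 1, 3, 2 from high to low for 6 of the 7 tested genes in S2 control cells, all but Hsp83, and for 7 of 7 with dsRNA. Some other heat shock pathway genes ranked the same way in control cells, such as Hsf (277, 171 and 233 CPM) and ref(2)P (618, 235 and 331 CPM). Others did not, such as p23 (463, 662 and 548 CPM). Of the 55 tested list genes that are not members, 5 were at least 2-fold higher in control library 1 than in the next one. These were Hsp70Bbb, Hsp70Bc, the small heat shock gene Hsp67Bc, the Hsp40 gene DnaJ-1 and stv, which encodes a cochaperone of the BAG family. Hsp70Bbb and Hsp70Bc may share reads with the Hsp70 copies among the members. The highest ratio among the other list genes was 1.99. Shares of all genes with such an order or ratio are not given here, so nothing is read from these counts. For stv the control libraries held 72.7, 3.91 and 11.0 CPM, and for DnaJ-1 they held 516, 210.1 and 246 CPM.

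Leaving out S2 control library 1 moved every inducible gene towards 0. Hsp23 was then at -1.19 (adjusted p = 0.214), Hsp27 at -0.87 (adjusted p = 0.142), Hsp26 at -1.06 (adjusted p = 0.276), Hsp68 at -0.75 (adjusted p = 0.326) and pooled Hsp70 at -1.02 (adjusted p = 0.306), and of the members only Hsp83 was called, beside 24% of all genes called lower in edgeR's test. Omitting dsRNA library 2 ended the calls of Hsp23 (-2.32, adjusted p = 0.118) and Hsp27 (-1.89, adjusted p = 0.114), as did omitting dsRNA library 3 (-2.63, adjusted p = 0.0990 for Hsp23, and -2.10, adjusted p = 0.0818 for Hsp27). Omitting control library 3 ended that of Hsp23 (-3.07, adjusted p = 0.0543). Without control library 2, or without dsRNA library 1, all 7 members were called lower, beside 24.1% and 28.9% of all genes. A fit without both libraries numbered 1, which was added once the data had been seen, called 6 of the 7, at -1.98 for Hsp23 (adjusted p = 0.0158) and -1.29 for Hsp27 (adjusted p = 0.00874), beside 30.3% of all genes called lower. With the library number as a block all 7 were called, beside 29.7% of all genes called lower, although equal numbers are not shown to pair samples. What set library 1 apart was not tested.

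In larval brain, Hsp23 and Hsp27 were called lower after shRNA and Hsp70Ba higher, where edgeR called 23% of the 10438 genes tested, 11.5% in each direction. Hsp70Ba passed the filter on low counts only through the shRNA libraries, where it is high, so it had to differ. It is left out of the count of members set against all genes, which is 2 called lower of the 6 others tested. In whole brains, fewer cells of a type and less RNA per cell cannot be told apart.

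Hsp23 stood at 3239, 3081 and 2031 CPM in control brains and at 946, 1762 and 1601 CPM with shRNA. Every shRNA library lay below every control library, as did 21.2% of all genes tested. Hsp23 fell 1.96-fold, a log2 fold change of -0.97 ± 0.27 (adjusted p = 0.0426, edgeR).

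Hsp27 stood at 1966, 1793 and 1335 CPM in control brains and at 429, 848 and 783 CPM with shRNA, again with no overlap. It fell 2.50-fold, a log2 fold change of -1.32 ± 0.27 (adjusted p = 0.0186, edgeR). Hsp26 was at 932, 866 and 549 CPM in control brains and at 339.6, 566 and 238 CPM with shRNA. The highest shRNA library passed the lowest control library, and the log2 fold change of -1.05 ± 0.34 missed the threshold (adjusted p = 0.0677, edgeR).

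These brain calls lay close to the threshold. Over all genes, 4.58 to 21.9% were called with a library left out, against 23% with none left out. Hsp27 lost its call without control library 1 (-1.21, adjusted p = 0.0649) or control library 2 (-1.27, adjusted p = 0.0775). Hsp23 lost its call in edgeR without control library 1 (-0.85, adjusted p = 0.124), control library 2 (-0.88, adjusted p = 0.139), shRNA library 1 (-0.74, adjusted p = 0.0695), shRNA library 2 (-1.14, adjusted p = 0.0712) or shRNA library 3 (-1.04, adjusted p = 0.0667). Hsp26 gained a call without shRNA library 2 (-1.45, adjusted p = 0.0447). In 1 fit of all 12 libraries, where the wide S2 spread enters the estimate for each gene, neither Hsp23 (-0.95, adjusted p = 0.463) nor Hsp27 (-1.30, adjusted p = 0.192) was called.

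Hsp83 stood at 4953, 5421 and 3952 CPM in control brains and at 2840.2, 4225 and 3196 CPM with shRNA. The groups overlapped, and the log2 fold change of -0.49 ± 0.17 missed the threshold (adjusted p = 0.0826, edgeR). Hsp68 was at 479, 314 and 229 CPM in control brains and at 206, 320.1 and 76.9 CPM with shRNA. The highest shRNA library exceeded the middle control library, and the log2 fold change was -0.77 ± 0.51 (adjusted p = 0.304, edgeR).

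**Figure D3:**
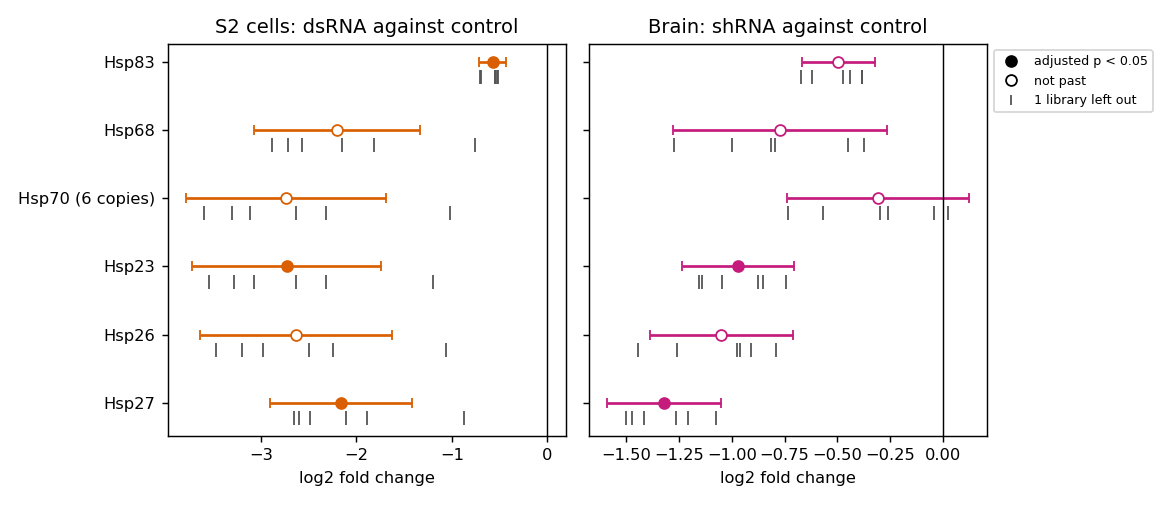
Log2 fold change after Atx2 knockdown in S2 cells (left) and brain (right) with its SE; filled points have an adjusted p below 0.05 in edgeR. Grey ticks give the value with 1 library left out. In S2 cells the tick nearest 0 of every gene but Hsp83 is the fit without control library 1, at -1.19 for Hsp23 and -0.75 for Hsp68.

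The Hsp70 copies behaved unequally in brain. Hsp70Bb stood at 55.7, 46.3 and 25.3 CPM in control brains and at 41.5, 61.4 and 23.8 CPM with shRNA, with overlapping groups and a log2 fold change of -0.02 ± 0.40 (adjusted p = 0.976, edgeR). Its sign turned in 5 of 15 alternatives. The 6 copies summed gave 71.4 ± 26.2 CPM in control brains and 58.2 ± 29.5 CPM with shRNA (SD, n = 3 each), a log2 fold change of -0.31 ± 0.43 (adjusted p = 0.637, edgeR).

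Hsp70Ba had 2, 0 and 1 counts in the control brain libraries and 99, 137 and 26 counts with shRNA, which is 3.60, 4.83 and 0.874 CPM. Every shRNA library lay above every control library, which, like its call, is not set against all genes. The ratio of the summed counts, 262 against 3, was 97.8 after scaling, with a 95% counting interval of 33.1 to 478 that covers counting error only. Its adjusted p was 0.00990 in edgeR, given as a description only, since the shRNA libraries alone brought it past the filter. Hsp70Aa went the other way, with 6, 17 and 0 counts in control brains and 0 in all shRNA brains. Of these 23 counts 17 came from control library 2, and Hsp70Aa had too few counts to be tested.

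Shares of the Hsp70 counts describe this relative to the Hsp70 total of each library. Hsp70Ba took 6.31 to 7.84% of the Hsp70 counts in all 6 S2 libraries, although the total behind those shares ran from 102 to 5526 counts. In control brains it took 0 to 0.0713%, and the exact 95% binomial interval of the library with 0 of 2460 counts reached 0.1498%. With shRNA its shares were 6.29, 5.48 and 3.00%. The share of Hsp70Bb was 57.9 to 62.1% in control brains and 69.7 to 81.8% with shRNA. Hsp70Bbb went from 12.2 to 12.6% in control brains to 4.38 to 6.93% with shRNA, and Hsp70Bc from 22.7 to 29.4% to 10.3 to 17.6%.

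For each of these 4 copies the brain groups did not overlap. A 2-sided exact permutation test of the share gave p = 0.1 for each, the smallest that 3 against 3 libraries allow, and 0.3 after Benjamini-Hochberg adjustment over 12 tests. The shares of a library sum to a whole, so a rise in some copies lowers the others, and these are not 4 separate results. The Hsp70Ba share rests on 3 counts in all control brains. In S2 cells the same test gave 0.6 for the Hsp70Ba share, at 6.82 ± 0.295% in control cells and 7.16 ± 0.780% with dsRNA (SD, n = 3). How far the assignment of reads among near-identical copies, or a difference in genotype between the brain groups, moves these shares was not tested.

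**Figure D4:**
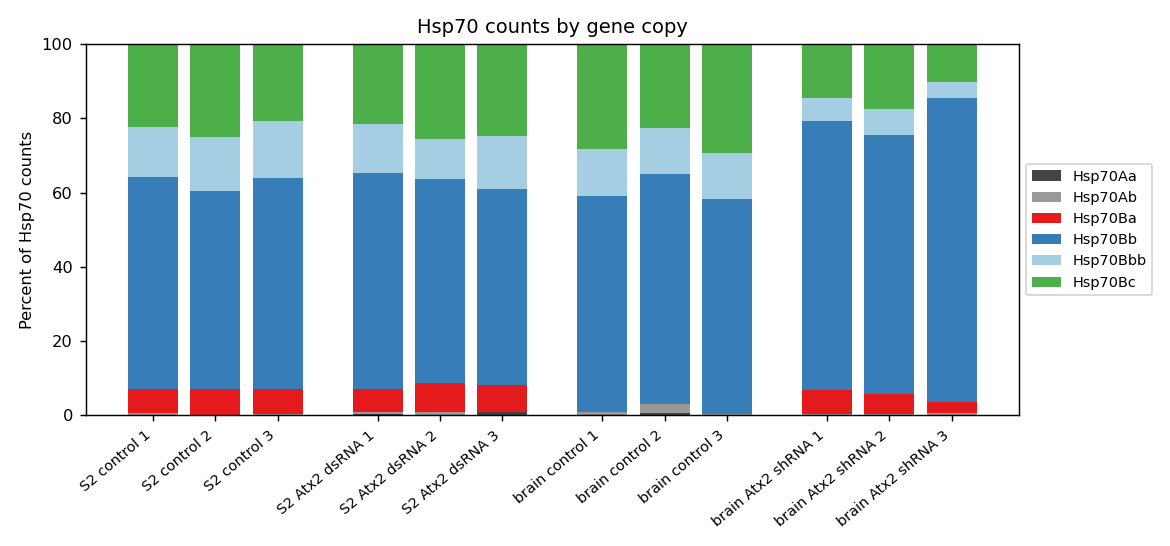
Share of each of the 6 Hsp70 gene copies in the Hsp70 counts of each library, in percent; each bar is 1 library and the parts sum to 100. The Hsp70Ba part is 6.31 to 7.84% in the S2 libraries, at most 0.0713% in control brains and 3.00 to 6.29% in brains with shRNA.

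Hsp70Ba was also the only member called by the interaction test, which compares the knockdown effects in brain and S2 cells and called 41.1% of the 11176 genes tested and 19.7% of them higher. The difference of the log2 fold changes was 9.15 ± 1.74 (adjusted p = 0.00169, edgeR), and its size depends on the prior count because control brains held 3 counts. It was 7.39 without S2 control library 1 and 10.01 without brain control library 1. As in the brain comparison, the low control count makes this value a description. For Hsp23 the difference was 1.79 ± 1.17 (adjusted p = 0.245), for Hsp27 0.87 ± 0.92 (adjusted p = 0.477) and for Hsp83 0.08 ± 0.26 (adjusted p = 0.832). With the 6 copies pooled, Hsp70 differed by 2.46 ± 1.30 (adjusted p = 0.154).

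Hsp23, Hsp26 and Hsp27 lie with Hsp22 in a stretch of 14.2 kb on chromosome arm 3L, from 9371511 to 9385694. Hsp23 occupies chr3L:9381882-9382765, Hsp26 chr3L:9376418-9377427 and Hsp27 chr3L:9384063-9385694, each with 1 exon. Hsp67Bc and Hsp67Ba, further small heat shock genes, lie in the same stretch. In brain, Hsp67Ba fell by 1.04 on the log2 scale (86.9 ± 17.4 CPM in control and 42.7 ± 13.6 with shRNA, SD, n = 3, adjusted p = 0.0284, edgeR). Its call was lost without control library 1 (adjusted p = 0.0909), control library 2 (adjusted p = 0.110), shRNA library 1 (adjusted p = 0.0616) or shRNA library 2 (adjusted p = 0.0972). Hsp67Bc was at -0.79 in brain (adjusted p = 0.102).

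The 4 small heat shock genes of this stretch that were tested in S2 cells, Hsp67Bc, Hsp26, Hsp23 and Hsp27, had values from -1.57 to -2.73, and the 5 tested in brain had values from -0.79 to -1.32. Without S2 control library 1, Hsp67Bc turned to 0.43 (adjusted p = 0.743, and 0.275 with all libraries). Genes within 10000 bases of the stretch are given for comparison. In S2 cells the kinesin gene Klp67A fell by 1.61 on the log2 scale (adjusted p = 0.000577) and mRRF1 was higher by 1.36 (adjusted p = 0.00288), while in brain they were at -0.10 and 0.14 and not called. In brain, CG4452 (-0.36, adjusted p = 0.0206) and CG4080 (-0.43, adjusted p = 0.0416) were called lower in edgeR. The transcript asRNA:CR43481, which overlaps Hsp67Ba on the other strand, was at -1.20 in brain (adjusted p = 0.0340), and without a stated strand setting its reads and those of Hsp67Ba cannot be told apart.

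**Figure D5:**
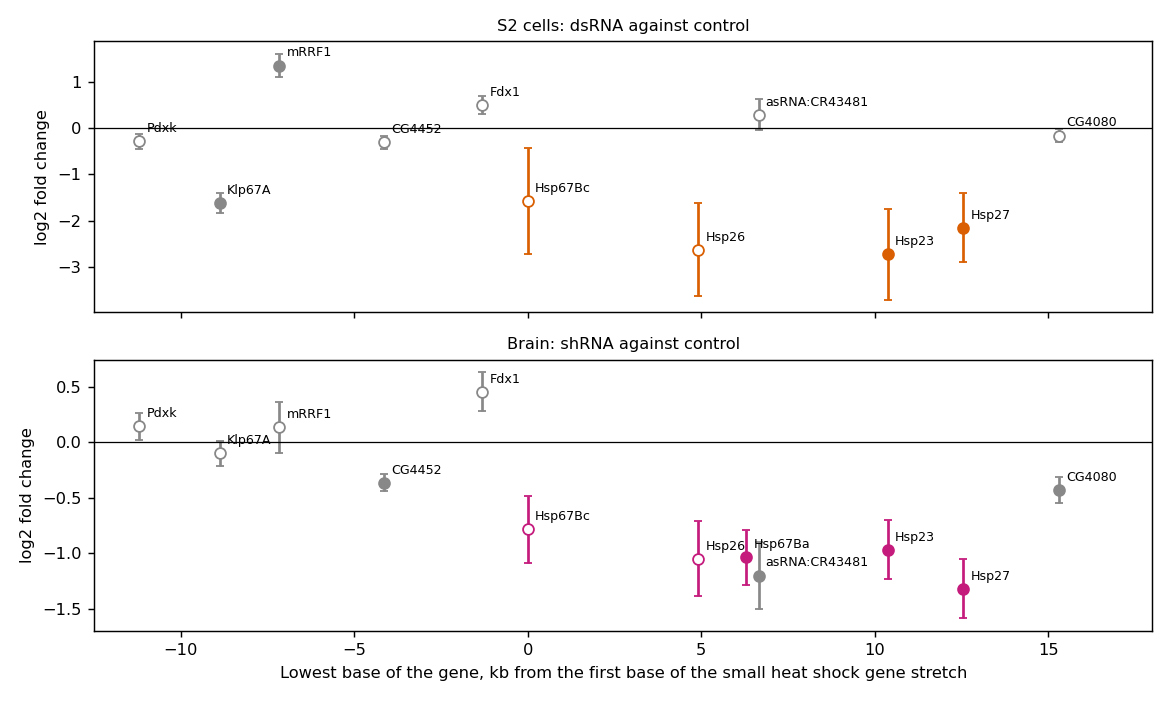
Log2 fold change with SE of the tested genes in and beside the small heat shock gene stretch, against the distance of each gene's lowest base from the start of the stretch in kb; S2 cells above, brain below. Coloured points are heat shock genes, grey points other genes, and filled points have an adjusted p below 0.05. All coloured points lie below 0, from -1.57 to -2.73 in S2 cells and from -0.79 to -1.32 in brain.

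Without knockdown, the small heat shock genes Hsp23 and Hsp27 were higher in brain than in S2 cells. This comparison uses the control libraries of both knockdown comparisons, and tissue and preparation cannot be told apart in it. Of the 7 tested members 4 were called, 3 higher and 1 lower in brain. The 1 lower is Hsp70Ba, well counted in only the S2 control cells of the groups compared, so it is not set against all genes. Of the 11176 genes tested 76.4% were called, with 40.6% higher and 35.9% lower in brain. Hsp23 was higher in brain by 2.46 ± 0.86 on the log2 scale (adjusted p = 0.0221, edgeR), Hsp27 by 2.89 ± 0.69 (adjusted p = 0.00256) and Hsp83 by 0.77 ± 0.18 (adjusted p = 0.00258). Hsp70Ba was lower in brain, with 3 counts in the control brains against 448 in the S2 control cells. Its adjusted p of 0.000498 in edgeR is given as a description only.

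Hsp26 (0.56, adjusted p = 0.558) and Hsp68 (0.34, adjusted p = 0.713) were not called. Without S2 control library 1 they were called higher in brain, at 2.22 for Hsp26 (adjusted p = 0.0257) and 1.87 for Hsp68 (adjusted p = 0.0422) in edgeR. The same omission moved Hsp27 to 4.26 and Hsp23 to 4.08, and Hsp23 lost its call without S2 control library 3 (2.14, adjusted p = 0.0791).

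Per kilobase of exon, Hsp23 was the highest member in control brains, at 3149 ± 743 CPM per kb (SD, n = 3). Hsp83 followed at 1613 ± 254, then Hsp27 at 1040.4 ± 199.8, Hsp26 at 775 ± 203, Hsp68 at 153 ± 56.8 and pooled Hsp70 at 30.2 ± 11.1 CPM per kb. Of these neighbours only Hsp27 and Hsp26 had overlapping ranges, and within each control library Hsp27 lay above Hsp26. With shRNA the order of the means was the same. The ranges of Hsp23 (1625 ± 489) and Hsp83 (1156 ± 243), and those of Hsp68 and pooled Hsp70, then overlapped as well. Within each shRNA library, however, Hsp23 lay above Hsp83 (1071 against 960, 1993 against 1427 and 1811 against 1080 CPM per kb). Hsp68 likewise lay above pooled Hsp70 in each. Hsp27 lay below Hsp26 in shRNA libraries 1 (263 against 336) and 2 (520 against 560).

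In S2 control cells Hsp83 led at 949 ± 125 CPM per kb, before Hsp23 at 572 ± 676 and Hsp26 at 525 ± 629.5. The range of each of the members from Hsp83 to pooled Hsp70 overlapped the next. Within each control library, however, the order from Hsp23 through Hsp26, Hsp27 and Hsp68 to pooled Hsp70 was the same. With dsRNA Hsp83, at 643 ± 107 CPM per kb, stood apart from Hsp23 at 85.3 ± 67.8. In control library 1 Hsp23 (1342 CPM per kb) and Hsp26 (1242 CPM per kb) lay above Hsp83 (1035 CPM per kb), while in control library 2 Hsp23 was at 79.6 CPM per kb. Hsp27, Hsp68 and pooled Hsp70 lay below Hsp83 in every S2 library.

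The genes most like each member over the 12 libraries were found by the root mean square difference of log2 levels (CPM plus 0.5, each gene centred on its mean) among 11176 genes, given as a description. Hsp23 and Hsp27 were nearest each other at 0.41, and the nearest gene outside the members was stv for both, at 0.63 and 0.60. Hsp68 and Hsp26 were nearest each other among the members at 0.43, and Hsp70Bc was their nearest other gene at 0.31 and 0.58. Hsp83 had no member within 1.05, and its nearest genes were pch2 (0.16) and zf30C (0.17). Hsp70Ba had no member within 1.58 and was nearest to Cyp6a14 (0.82).

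Other chaperone genes, on lists of the heat shock pathway, were called in both directions in S2 cells, where 28.5% of all genes tested were called higher and 26.6% lower. Of 5 tested constitutive Hsp70 family genes 1 was higher, Hsc70-4, the main cytoplasmic constitutive Hsp70, at 0.24 (5139 ± 292 CPM in control and 6106 ± 192 with dsRNA, SD, n = 3, adjusted p = 0.0317, edgeR). That call ended in edgeR when control library 1, 2 or 3 was omitted (adjusted p = 0.0984, 0.0860 and 0.203) and when dsRNA library 2 or 3 was omitted (adjusted p = 0.132 and 0.0783). Of 10 tested chaperonin genes 2 were higher, CG11267 (0.44, adjusted p = 0.0221) and CCT4 (0.43, adjusted p = 0.0377). Both calls were lost in edgeR without control library 1 (adjusted p = 0.0805 and 0.127), control library 3 (0.0993 and 0.134), dsRNA library 2 (0.0813 and 0.140) or dsRNA library 3 (0.0543 and 0.124), and that of CCT4 also without control library 2 (0.0520).

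Of 11 tested genes of the Hsp90 family and its cochaperones 2 were higher and 1 was lower in S2 cells, with a list median of -0.09. Cdc37, which brings kinases to Hsp90, rose by 0.52 ± 0.10 (adjusted p = 0.00332) and Dpit47 fell by 0.74 (adjusted p = 0.000555), and edgeR called both with any single library left out. With library totals alone, Dpit47 was no longer called (-0.25, adjusted p = 0.0551) and Cdc37 was at 1.01. Of 17 tested Hsp70 cochaperones 6 were higher and 1 was lower, with a list median of 0.27, which is smaller than the 0.49 by which that scaling shifts all genes. The Hsp40 gene Csp, whose product acts on synaptic vesicles, fell by 1.44 (162 ± 4.02 CPM in control and 60.02 ± 1.33 with dsRNA, SD, n = 3, adjusted p = 2.66e-05). The Hsp40 genes wus (2.53, adjusted p = 0.000106) and mrj (0.92, adjusted p = 0.00621) rose, and these calls held in edgeR with any single library left out.

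Of 8 tested genes of heat shock regulation and other stress responses, 3 were higher in S2 cells. Ubi-p63E, a polyubiquitin gene, rose by 0.59 (adjusted p = 0.00587) and Gadd45 by 1.00 (adjusted p = 0.000872) in edgeR, both with any single library left out. The heat-inducible noncoding RNA lncRNA:Hsromega rose by 1.00, from 156 ± 76.6 CPM to 311 ± 25.9 (SD, n = 3, adjusted p = 0.0222, edgeR), although its control library 1 was the highest of that group at 239 CPM. The call was lost without dsRNA library 2 (adjusted p = 0.0526) or control library 3 (adjusted p = 0.0828). Hsf, the heat shock factor, was at -0.12 in S2 cells (adjusted p = 0.569), and at 0.06 with upper quartile scaling and 0.37 with library totals.

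In brain, 2 of 6 constitutive Hsp70 family genes, 1 of 4 other small heat shock genes, 1 of 11 Hsp90 family genes and 3 of 17 Hsp70 cochaperones were called lower, and 1 cochaperone and 1 of 10 chaperonins were called higher. Hsp110, a nucleotide exchange factor of Hsp70, fell by 0.50 (512 ± 12.9 CPM in control and 366 ± 47.8 with shRNA, SD, n = 3, adjusted p = 0.0185, edgeR). Its call was lost without control library 1 (adjusted p = 0.0625) or control library 2 (adjusted p = 0.0858). Hsf fell by 0.34 (adjusted p = 0.0304), and the call was lost without control library 1 (adjusted p = 0.0876), control library 2 (adjusted p = 0.108), or shRNA library 1 (adjusted p = 0.0599), 2 (adjusted p = 0.101) or 3 (adjusted p = 0.0571). Gadd45, a stress-responsive gene, rose by 1.10 (adjusted p = 0.0202), and its call was lost without control library 2 (adjusted p = 0.0652), shRNA library 1 (adjusted p = 0.0548) or shRNA library 2 (adjusted p = 0.0543). None of the brain calls on these lists of other chaperone and stress genes held with each single library left out. Calls were lost over all genes too: 4.58 to 21.9% were called with a library left out, against 23% with none left out. The list counts stand beside the 11.5% of all genes called in each direction with all libraries.

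Ecdysone response genes were counted beside the small heat shock genes. In brain 6 of 18 tested were lower and 2 higher, with a list median of -0.52, beside 11.5% of all genes in each direction. Eip93F fell by 3.51 ± 0.18 (adjusted p = 0.00122, edgeR), and it was the only 1 of these 8 calls that held with each single library left out. Over all genes, 4.58 to 21.9% were called in brain with a library left out, against 23% with none left out. In S2 cells 3 of 14 tested were lower and 6 higher, beside 26.6% and 28.5% of all genes, and 6 of the 9 calls held with each single library left out. The list median was 0.40, smaller than the 0.49 by which library totals alone shift all genes.

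Markers of some other cell types differed between the brain groups, where 11.5% of all genes were called in each direction. The summed level of 10 hemocyte markers was 334 to 523 CPM in control brains and 1067 to 1529 CPM with shRNA, with 5 called higher and none at 0. 8 glial markers summed to 1026 to 1323 CPM in control and 1673 to 2495 CPM with shRNA, with 6 called higher and none at 0. Neuroblast markers went the other way, from 661 to 690 CPM in control to 319 to 392 CPM with shRNA, with 6 of 8 lower and none at 0. The 10 neuron markers, all present, summed to 1556 to 2037 and 2072 to 2350 CPM, with 4 higher and 1 lower.

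Of the 7 fat body markers 1 was called higher (366 to 805 CPM in control, 762 to 3806 with shRNA). The 12 muscle markers summed to 145 to 407 CPM in control and 386 to 1328 CPM with shRNA, with none of 11 tested called. In brain, none of 4 tested gut markers, 7 tested salivary gland glue genes or 5 tested ring gland markers was called. Of 10 tested imaginal disc markers 1 was lower. Gut markers reached 1990 CPM in shRNA library 1 and at most 3.80 CPM in the other brain libraries, and glue genes of the salivary gland reached 2050 CPM in control library 3 and at most 31.7 CPM elsewhere, and of these genes alphaTry and ng1 were at 0 in all control brains. With both of these libraries left out, and so fewer in each group, Hsp23 (-0.93, adjusted p = 0.0151) and Hsp27 (-1.22, adjusted p = 0.0124) were called in edgeR. Beside them 4.96% of all genes were called lower. In S2 cells the 10 hemocyte markers summed to 10225 to 11125 CPM in control and 3178 to 3788 CPM with dsRNA. Of 8 tested 7 were lower and 1 higher, beside 26.6% and 28.5% of all genes. The part of these markers in the heat shock values was not tested.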

How the data were processed

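Poly(A) RNA was sequenced from 12 samples with TruSeq libraries, per the labels. Each sample has a table of raw counts per gene, deposited by the authors. The submitters' processing notes name cutadapt 1.13, STAR, HTSeq 0.6.1p1, the BDGP6 genome and DESeq2, the last without a role. For the strand setting, the annotation release and reads that match several genes, no setting was found: they are not given in the sources used. The 9 symbols were mapped to identifiers, positions and exon lengths with the BDGP6.54 annotation, which matched 17599 of 17737 identifiers.

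The counts were fitted with edgeR 4.0.16 in R 4.3.3. In each system, filterByExpr with a minimum count of 10 chose the genes, TMM scaled the libraries, and the quasi-likelihood F test compared the groups, with Benjamini-Hochberg adjustment over all genes tested and a threshold of 0.05. Adjusted p-values are from edgeR except where DESeq2 is named. The interaction and the brain to S2 contrast came from 1 fit of all 12 libraries. CPM use TMM factors over all 12 libraries. The SE is the coefficient divided by the root of F. The 6 Hsp70 copies were also summed and tested as 1 gene in a fit of all genes. Shares of Hsp70 counts have exact 95% binomial intervals and were compared by exact permutation tests. Intervals and floors cover counting error only, since reads carry no molecular identifiers.

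All members are named in every comparison. From each pathway list the counts called, and up to 4 called genes with the largest change, were eligible to be named. Members of lists that were not called are given with their values. The members and lists were chosen with earlier results of these data known. Alternatives were RLE, upper quartile and library total scaling, a filter of 5 CPM in at least 3 libraries or none at all, a replicate block, DESeq2 1.42.0, 1 fit of all libraries, leaving out each library, and leaving out brain control 3 with brain shRNA 1. Leaving out both S2 libraries numbered 1 was added after seeing the data. The scripts were checked on simulated counts. No replicate pair agreed within sampling noise, with a chi-square per degree of freedom of at least 22.1.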

Additional observations from a re-analysis of the deposited data

Results flagged for a closer look

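Hsp70Ba was called by the interaction test between brain and S2 cells, a value given as a description only because of the low control brain counts. The difference of the log2 fold changes was 9.15 ± 1.74 (adjusted p = 0.00169, edgeR). In brain, Hsp70Ba had 2, 0 and 1 counts in control libraries and 99, 137 and 26 counts with shRNA, and in S2 cells it had 363, 18 and 67 counts in control libraries and 40, 8 and 15 counts with dsRNA. The other 6 tested members had no called difference (adjusted p from 0.115 to 0.832). The fitted size depends on the prior count, because the control brains hold 3 counts in all. The level of a single copy is uncertain, and with the Hsp70 copies pooled the difference was 2.46 ± 1.30 and not called (adjusted p = 0.154, edgeR).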

How the results depend on the processing

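Shares in parentheses are those of all genes called under the same alternative. The number of members called in S2 cells, 3 (55%), became 0 with library totals alone (68.8%), 7 without a filter (37.1%), 1 with the stricter filter (56.7%), 6 with DESeq2 (56.2%), 7 in 1 fit of all 12 libraries (50.1%), 6 without both libraries numbered 1 (61.8%), and 1 to 7 with a library left out (41.7 to 58.7%). In brain the 3 called members (23%) include Hsp70Ba, which had to differ, so these counts only describe and are not read against the shares. The 3 became 5 with DESeq2 (31.8%) and 1 in the fit of all 12 libraries (17.3%), which was Hsp70Ba alone. The count was 2 with upper quartile scaling (22.3%) or no filter (12.7%), which end the call of Hsp23 in edgeR (adjusted p = 0.0510 and 0.0517). It was also 2 with the stricter filter (29.7%), which drops Hsp70Ba, and 2 with the copies pooled. With a library left out it was 1 to 3 (4.58 to 21.9%). The count over all genes in brain, 2397, became 494 to 2364 with a library left out and 1231 without brain control 3 and shRNA 1. The interaction count of 1 (41.1%), which is Hsp70Ba, became 0 under the stricter filter (49.7%), which drops Hsp70Ba, and 0 with the copies pooled. It was 1 to 2 with a library left out (33.7 to 40.7%). The same numbers in 2 groups are not shown to pair samples: same-numbered libraries deviated together with correlations of 0.40, 0.30 and 0.02 in S2 cells and 0.04, 0.23 and -0.43 in brain. With a replicate block 7 members were called in S2 cells (60.5%), 0 in brain (0.383%, 40 of all genes) and 2 in the interaction (38%).

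Some values changed sign. Hsp70Bb in brain was 0.0020 with upper quartile scaling, 0.0073 with the stricter filter, and -0.39 to 0.28 with a library left out (above 0 without control 1, control 2 or shRNA 3). Pooled Hsp70 in brain was -0.732 to 0.0248 with a library left out (above 0 without shRNA 3). In the interaction, leaving out a library gave -0.0672 to 2.16 for Hsp68, -0.0412 to 2.47 for Hsp26 and -0.495 to 1.33 for Hsp27 (each below 0 without S2 control 1). Hsp83 was there at -0.0732 with upper quartile scaling, -0.395 with library totals, and -0.0931 to 0.233 with a library left out (below 0 without shRNA 2 or brain control 3). For brain against S2 control, leaving out a library gave -0.98 to 1.38 for Hsp70Bb and -1.04 to 1.30 for pooled Hsp70 (each above 0 without S2 control 1), and -0.14 to 1.87 for Hsp68 (below 0 without S2 control 2). A replicate block gave 0.105 for Hsp70Bb and 0.0248 for pooled Hsp70. Where the alternative's own construction does not show the cause, the cause was not tested. Several other list genes also changed sign, among them Hsp67Bc and Hsf in S2 cells, as given with their values. In S2 cells without control 1, stv went from -1.78 to 0.10 and DnaJ-1 from -0.35 to 0.10. In brain, lncRNA:Hsromega went from -0.16 to 0.20 without control 3. These are examples, not all such genes. Of the values for single members and for pooled Hsp70, 451 kept direction and side of the threshold, 28 lost a call, 41 gained one and 18 changed sign. The median over all genes shifted with library totals by 0.49 in S2 cells, -0.47 in the interaction and 0.37 between tissues. Depth limits Hsp70Aa and the Hsp70 shares of S2 dsRNA library 2, which rest on 102 counts.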
